A study of Mus musculus with 24 samples.

Results

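The genes described here are p53, its close relatives and regulators, and genes that p53 is known to switch on, 32 genes in all, listed by name, with earlier results of these data known. They were measured in 1 immortalized line of mouse embryonic fibroblasts that lacks Ku70, a protein of the non-homologous end joining pathway that rejoins broken DNA. How the line was immortalized, and whether its p53 is intact, are not given in the sources used here. Each of the 32 genes had at least 1 probe among the 21286 genes that the microarray covered. By role, 6 were p53 and its regulators, 8 belonged to cell cycle arrest, 13 to apoptosis and death receptors, and 5 to DNA repair, nucleotide supply and signaling.

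p53 is a transcription factor that is held at a low level in unstressed cells because Mdm2 marks it for degradation. Damage to DNA stabilizes it, and it then raises the transcription of genes that stop the cell cycle, favor cell death, repair DNA or return p53 itself to a low level. Potassium bromate (KBrO3) is an oxidizing agent that damages DNA bases, and bisphenol A (BPA) is a plastics monomer with estrogenic activity.

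RNA of 8 groups of 3 biological replicates was hybridized to 24 single-color arrays, and every group, the untreated controls included, was of the Ku70-/- line, so no array came from cells that had Ku70. The first set of 15 arrays held untreated controls labelled 4 hr, cells given 20 mM KBrO3 alone for 1 hr and harvested 3 or 23 hr after its removal, and cells co-exposed to the same KBrO3 and to 150 μM BPA, which was present before, during and after KBrO3. Those harvests are called 4 and 24 hr, counted from the start of KBrO3. The second set of 9 arrays held its own untreated controls, with no time on the label, and cells given 150 μM BPA alone for 4 or 24 hr by the labels, 1 hr longer by the study's methods. No array used here was a control labelled 24 hr, so a change from control at 24 hr and time in culture cannot be told apart.

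Promoter sequence was read for the members, and 25 of the 32 matched an entry of the RefSeq promoter table (mouse build GRCm38.p6). That table holds 250 bases before and 50 bases after each start of transcription. An exact p53 half-site consensus, which reads the same on both strands, stood in the promoters of 10 of these 25 members (40%), against 2582 of 27025 genes (9.55%) and 2745 of 32851 promoters of the same length (8.36%). A pair of such half-sites at most 13 bases apart stood in 24 promoters (0.0731%), and Cdkn1a was the 1 member among them. A match describes the letters in this window and was not measured as binding. The members were listed as p53 and genes it is known to switch on, so their share describes the list and not the arrays. The half-sites, in capitals, are shown with their surroundings, 5′ to 3′ on the strand of the gene, for Cdkn1a and for 4 further members whose results follow. They lie at chr17:29090881-29090962 (plus strand) for Cdkn1a, chr10:117710910-117710969 (minus strand) for Mdm2, chr11:40755437-40755496 (minus strand) for Ccng1, chr7:45467065-45467124 (minus strand) for Bax and chr11:69580259-69580318 (plus strand) for Trp53.
Cdkn1a: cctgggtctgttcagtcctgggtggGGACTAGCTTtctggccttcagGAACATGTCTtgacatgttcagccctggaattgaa
Mdm2: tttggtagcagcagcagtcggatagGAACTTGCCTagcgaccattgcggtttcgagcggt
Ccng1: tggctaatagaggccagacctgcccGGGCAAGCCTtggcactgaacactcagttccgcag
Bax: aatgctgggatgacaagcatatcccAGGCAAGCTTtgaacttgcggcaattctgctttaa
Trp53: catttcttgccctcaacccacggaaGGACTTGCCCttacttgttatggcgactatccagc

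The first bases of the half-sites lay before the start of transcription, at 73 and 51 bases for Cdkn1a, 186 for Mdm2, 185 for Ccng1, 201 for Bax and 75 for Trp53. Of the 10 members with a half-site, 5 (Mdm2, Ccng1, Cdkn1a, Bax and Aen) were called higher after co-exposure than after KBrO3 alone at 24 hr and 5 (Trp53, Ppm1d, Gtse1, Ei24 and Sesn1) were not. Beside them stood 17 of all 32 members (53.1%) and 6.33% of all genes, so the half-site members were close to the share of all members.

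Signals are given as log2 of the processed spot intensity minus the 75th percentile of the same array, so a signal of 0 equals that percentile and 1 unit is a doubling. They are compared only within a probe. A gene was called higher or lower when limma's Benjamini-Hochberg adjusted p was below 0.05 over all probes tested and the fold change was beyond 1.5, and errors of log2 differences are limma's SE with 3 arrays per group. The share of spots well above background was 57.7 to 68.1% over first-set arrays and 76.4 to 79.4% over second-set arrays, and the members' probes were well above background on all 24 arrays and saturated on none. The median residual SD over probes was 0.106 for the first set against 0.318 for the second, which therefore could show only larger changes. The fibroblast markers Col1a1, Col1a2, Col3a1, Vim, Fn1, Pdgfra, Pdgfrb, Fap and S100a4 were well above background on all 24 arrays and Thy1 on 19. Of the markers of other cell types, Pecam1, Ptprc, Myf5 and Myh3 were well above background on 0 arrays, Krt5, Kdr, Tek, Vwf, Cd68 and Lyz2 on all 24, Krt18 on 20, Csf1r and Myod1 on 19, and the other 9 on 1 to 14. The summed linear level of the 10 fibroblast markers was 1500 to 1600 in the first-set controls, 1392 to 1483 and 1029 to 1071 at 4 hr after KBrO3 alone and co-exposure, and 657 to 745 and 447 to 526 at 24 hr. Of these markers, 8 were called lower in either 24 hr treatment, against 20.9% and 24.1% of all genes, and Fap was called higher after co-exposure. The summed level of the 6 macrophage and leukocyte markers was 0.568 to 0.631 in the first-set controls, 1.06 to 1.12 and 0.869 to 0.883 at 4 hr after KBrO3 alone and co-exposure, and 0.399 to 0.453 and 0.510 to 0.571 at 24 hr, and at 4 hr 2 of the 3 that could be tested were called higher in either treatment. The 5 skeletal muscle markers summed to 0.048 to 0.053 in these controls and to 0.0727 to 0.0776 and 0.112 to 0.117 at 4 hr after KBrO3 alone and co-exposure, and both that could be tested were called higher in the latter. The 5 endothelial markers summed to 0.182 to 0.231, then 0.268 to 0.299 and 0.277 to 0.330 at 4 hr and 0.210 to 0.234 and 0.156 to 0.167 at 24 hr, and the 6 epithelial markers to 0.153 to 0.208 and, at 24 hr after co-exposure, 0.0983 to 0.117. The part of these markers in the members' changes was not tested, and fewer cells of a type and less RNA per cell cannot be told apart in bulk RNA. The Xrcc6 (Ku70) probe was well above background on all arrays, and since its place relative to the deletion is not known it does not check the line. Scaling the arrays to their median instead would add 0.32 to every log2 difference for co-exposure against control at 24 hr and 0.17 to co-exposure against KBrO3 alone at 24 hr, and -0.14 to the latter at 4 hr. The shift would be 0.46 for co-exposure at 24 hr against 4 hr, 0.31 for the difference between the times in the effect of added BPA, and from -0.14 to 0.15 elsewhere.

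Members were called in both directions 4 hr after KBrO3 alone and mostly higher 24 hr after co-exposure. At 4 hr KBrO3 alone gave 11 of 32 members higher than control (34.4%) and 7 lower (21.9%), against 20.8% and 23.2% of the 15380 genes tested. Co-exposure gave 10 higher and 9 lower (31.2% and 28.1%), against 28.2% and 26.5% of all genes, so that neither share stood far from the background. At 24 hr KBrO3 alone gave 9 higher and 3 lower (28.1% and 9.38%), against 12.5% and 20.9%. Co-exposure gave 21 higher and 2 lower (65.6% and 6.25%), against 15.3% and 24.1%. The median log2 difference of the members from control was 0.12 after either treatment at 4 hr, 0.29 after KBrO3 alone at 24 hr and 0.77 after co-exposure at 24 hr, beside 0.02, 0.01, -0.07 and -0.07 over all genes in that order. These 4 comparisons share their 3 controls, and they are set side by side here without a test between them. For KBrO3 alone at 4 hr, 1 control shared the slide of the 3 treated arrays, and within it all 18 called members had the same sign, 17 of them beyond the fold limit. The other 3 treatments shared no slide with a control, so that for them the slide cannot be told apart from the treatment.

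The direct comparison of co-exposure with KBrO3 alone does not use the controls' levels, which enter only the estimate of the spread. At 24 hr 17 of 32 members were higher after co-exposure (53.1%) and 0 were lower by limma, against 6.33% and 7.89% of all genes. Of the members below 0 there, 4 had an unadjusted p below 0.05, beside 25.5% of all genes, and all 4 members were within the fold limit. The members' median difference was 0.62, beside -0.01 over all genes, and 26 of 32 members were above 0, beside 49.5% of all genes. At 4 hr the balance lay on the other side, with 1 member higher (3.12%) and 7 lower (21.9%), against 11.3% and 9.03% of all genes, and a members' median of -0.14. With median scaling the split at 4 hr was 0 higher and 9 lower, and at 24 hr 20 higher and 0 lower. At 24 hr both treatments had 2 arrays on 1 shared slide, and within it all 17 called members were higher after co-exposure, 16 of them beyond the fold limit. At 4 hr the treatments lay on separate slides, so slide and treatment cannot be told apart there.

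**Figure D1:**
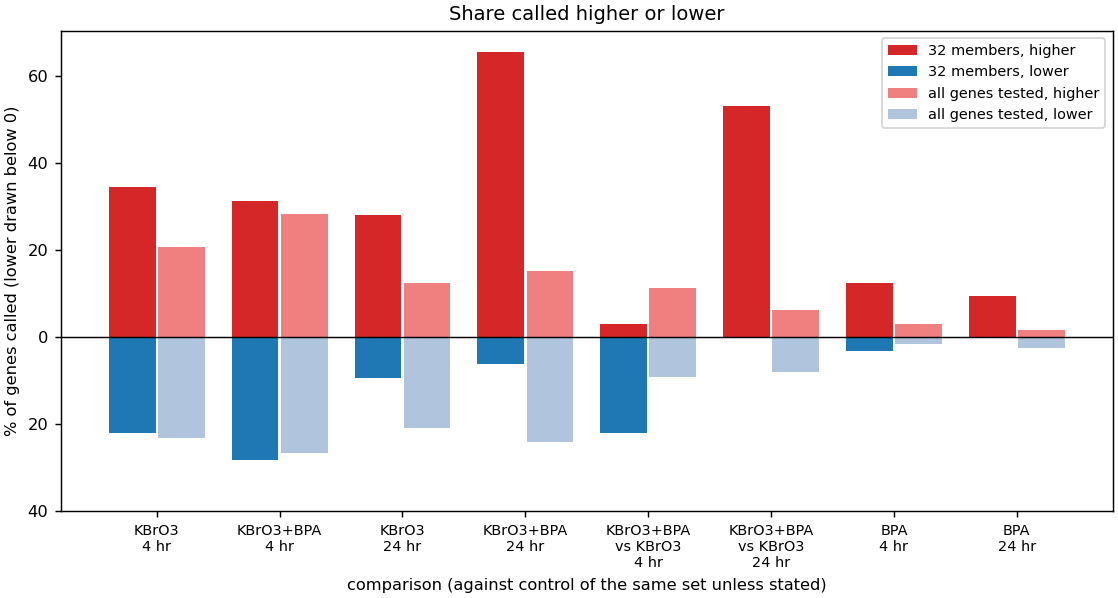
Percent of genes called higher (above 0) or lower (drawn below 0) in each comparison, for the 32 members (dark bars) and for all genes tested (pale bars). The members' bar for higher genes reaches 65.6% after co-exposure at 24 hr and 53.1% for co-exposure against KBrO3 alone at 24 hr, beside 15.3% and 6.33% of all genes.

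Among p53 and its regulators, Mdm2 changed most. Mdm2 encodes the ubiquitin ligase that targets p53 and is itself switched on by it. Its signals were 0.88, 0.93 and 1.11 in controls, 2.98, 3.01 and 3.03 at 4 hr after KBrO3 alone, 2.66, 2.69 and 2.70 after co-exposure, then 1.85, 1.98 and 1.99 at 24 hr after KBrO3 alone and 3.28, 3.32 and 3.35 after co-exposure. No array of a treated group overlapped the controls, and the co-exposed arrays were the lower of the treated groups at 4 hr and the higher at 24 hr. Mdm2 rose by 2.03 ± 0.06 at 4 hr and by 0.97 ± 0.06 at 24 hr after KBrO3 alone, against 1.71 ± 0.06 and 2.34 ± 0.06 after co-exposure. At 24 hr the treatments differed 2.59-fold (log2 1.38 ± 0.06, adjusted p = 5.76e-09), and the 4 hr difference of -0.33 was within the fold limit.

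Ccng1, which encodes cyclin G1, a target that acts back on Mdm2, was a late member. Ccng1 signals were 0.01, 0.11 and 0.15 in controls, 0.09 to 0.23 and -0.10 to 0.10 at 4 hr after KBrO3 alone and co-exposure, 1.06, 1.10 and 1.21 at 24 hr after KBrO3 alone and 2.03, 2.13 and 2.42 after co-exposure. The 4 hr arrays overlapped the controls and both 24 hr groups lay above them without overlapping each other. The 24 hr rise of Ccng1 was 1.03 ± 0.09 with KBrO3 alone but 2.11 ± 0.09 with co-exposure, a difference of 1.07 ± 0.09 (2.11-fold, adjusted p = 1.87e-06).

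Trp53, the gene of p53, was 0.75 ± 0.10 higher than control at 4 hr and 0.85 ± 0.10 at 24 hr after KBrO3 alone, and 1.08 ± 0.10 higher at 24 hr after co-exposure. At 4 hr after co-exposure the difference of 0.34 was within the fold limit, and co-exposure and KBrO3 alone differed by -0.41 at 4 hr and 0.24 at 24 hr, neither called. Another Trp53 probe was not called in the comparisons where this one was, with 0.41, -0.08 and -0.14, so the Trp53 calls rest on 1 probe. Trp73, a p53 relative, was 0.70 ± 0.13 higher at 4 hr and 0.63 ± 0.13 lower at 24 hr after KBrO3 alone (log2 -0.63, adjusted p = 0.00134), and its 4 hr value turned to -0.19 with the normexp background correction. Mdm4, an inhibitor of p53 related to Mdm2, and Ppm1d, a phosphatase that ends the damage signal, were called in none of the 8 comparisons with control or between treatments by the probe used. Ppm1d gave 0.42, 0.30, 0.32 and 0.05 for the 4 treatments in the order above, while another Ppm1d probe was called higher in all 4, by 0.80, 0.67, 0.74 and 0.67. Of 4 other Mdm4 probes, 2 were called higher than control after co-exposure at 24 hr, by 0.80 and 0.77, and 1 of them was 0.81 higher than after KBrO3 alone, where the probe used gave 0.14.

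**Figure D2:**
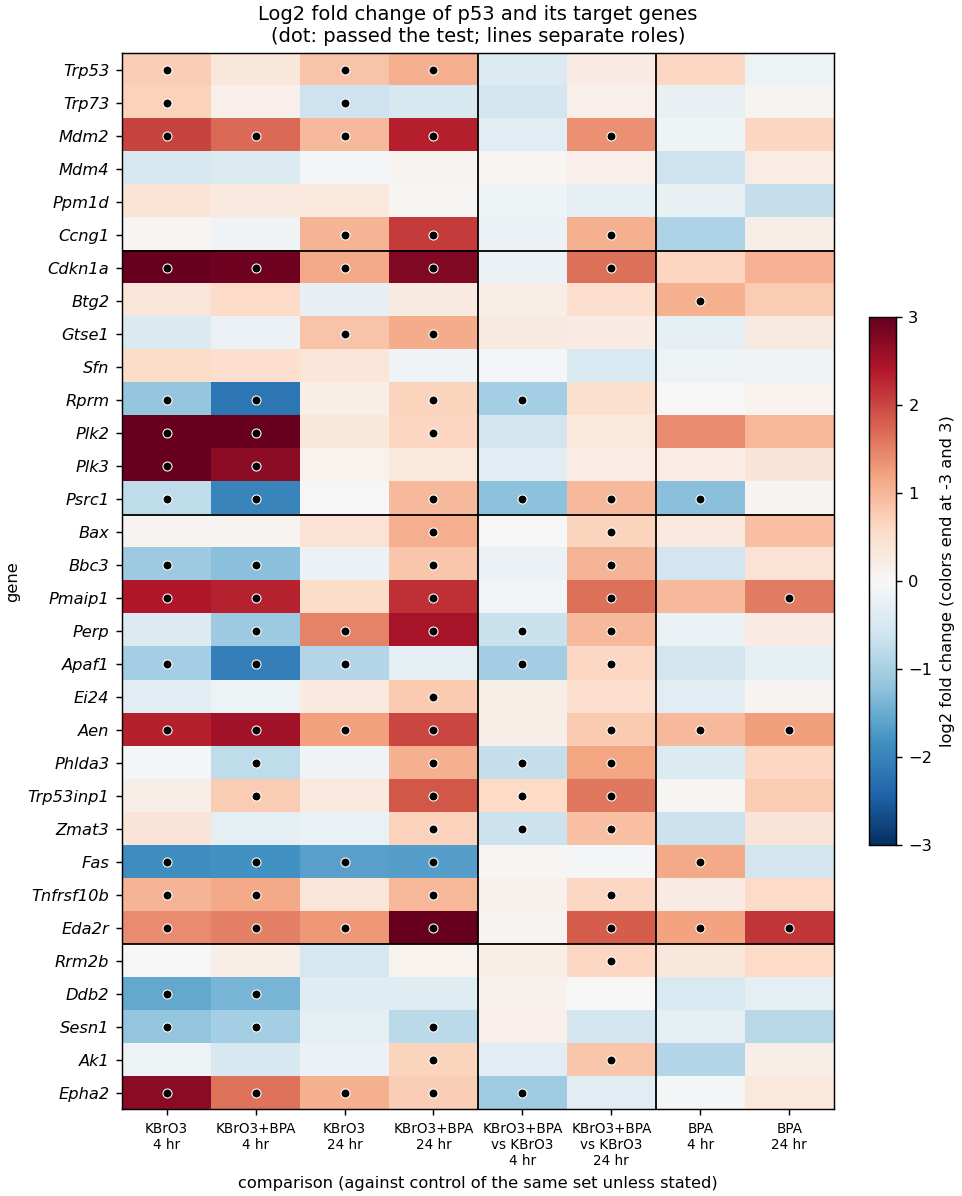
Log2 fold change of the 32 members (rows, grouped by role) in 8 comparisons (columns), red for higher and blue for lower, with a dot where the gene was called and colors ending at -3 and 3. The column for co-exposure against KBrO3 alone at 24 hr holds 17 dots, all on red cells, and the 4 hr column holds 7 on blue cells and 1 on a red cell.

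Of the 8 cell cycle arrest members, 3 were higher and 2 lower at 4 hr in either treatment, against 20.8% and 23.2% of all genes for KBrO3 alone and 28.2% and 26.5% for co-exposure. At 24 hr 2 were higher after KBrO3 alone and 5 after co-exposure, against 12.5% and 15.3%. Cdkn1a encodes p21, the inhibitor of cyclin-dependent kinases through which p53 halts the cycle. Cdkn1a signals were 0.61, 0.70 and 0.72 in controls, 3.74, 3.76 and 3.78 at 4 hr after KBrO3 alone, 3.55, 3.61 and 3.62 after co-exposure, 1.72, 1.80 and 1.89 at 24 hr after KBrO3 alone and 3.27, 3.54 and 3.56 after co-exposure. All treated arrays lay above the controls, and those of KBrO3 alone at 24 hr were the only treated group under 3. The rise was 3.08 ± 0.07 at 4 hr (8.47-fold) and 1.13 ± 0.07 at 24 hr (2.18-fold) after KBrO3 alone, and 2.92 ± 0.07 (7.55-fold) and 2.78 ± 0.07 (6.86-fold) after co-exposure. Co-exposure against KBrO3 alone gave -0.17 at 4 hr, which was not called, and 1.65 ± 0.07 at 24 hr (3.15-fold, adjusted p = 7.65e-09).

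Plk2 and Plk3, polo-like kinases that act in stress responses, had the largest 4 hr rises of the group together with Cdkn1a, and neither was called in co-exposure against KBrO3 alone. Plk2 signals were 0.50, 0.60 and 0.87 in controls, 4.50, 4.52 and 4.53 at 4 hr after KBrO3 alone, 3.92, 3.98 and 3.98 after co-exposure, and 0.94 to 1.07 and 1.25 to 1.39 at 24 hr. Its rise of 3.86 ± 0.08 at 4 hr after KBrO3 alone (14.5-fold) was the largest of any member, and at 24 hr it was called only after co-exposure (0.65 ± 0.08). Plk3 rose by 3.01 ± 0.07 and 2.69 ± 0.07 at 4 hr, and its 24 hr values of 0.10 and 0.32 were not called.

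Psrc1 and Rprm were lower at 4 hr and, after co-exposure, higher at 24 hr. Psrc1, whose product acts on the mitotic spindle, had signals of 2.32, 2.35 and 2.36 in controls, 1.54, 1.57 and 1.63 at 4 hr after KBrO3 alone, 0.34, 0.35 and 0.39 after co-exposure, 2.28, 2.33 and 2.41 at 24 hr after KBrO3 alone and 3.12, 3.35 and 3.45 after co-exposure. The arrays of KBrO3 alone overlapped the controls at 24 hr, and the co-exposed arrays were the lowest group at 4 hr and the highest at 24 hr. Co-exposure against KBrO3 alone gave -1.22 ± 0.07 at 4 hr, with an adjusted p of 1.21e-07, but 0.97 ± 0.07 at 24 hr, with an adjusted p of 4.57e-07. Other Psrc1 probes gave -0.86, called, and -0.57, within the fold limit, at 4 hr. Rprm, which encodes reprimo, an inducer of G2 arrest, fell by 1.16 ± 0.05 and by 2.17 ± 0.05 at 4 hr, was 0.19 above control at 24 hr after KBrO3 alone without being called, and rose by 0.67 ± 0.05 at 24 hr after co-exposure. Its 4 hr difference between the treatments was -1.01 ± 0.05, and the 24 hr difference of 0.48 was within the fold limit.

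Gtse1, a G2 and S phase protein that binds p53, rose at 24 hr in both treatments, by 0.86 ± 0.22 for KBrO3 alone and 1.11 ± 0.22 for co-exposure, with arrays at -1.07, -0.78 and -0.37 and at -0.83, -0.74 and 0.09 against -1.75, -1.60 and -1.46 in controls. Btg2, an antiproliferative target, and Sfn, which encodes 14-3-3 sigma, passed the adjusted p but not the fold limit at 4 hr, with 0.36 and 0.57 for Btg2 and 0.55 and 0.49 for Sfn. Other probes of Sfn were called higher at 4 hr, by 1.62 and 1.69 after KBrO3 alone and 1.18 and 1.13 after co-exposure, and those of Btg2 were called higher at 4 hr after KBrO3 alone, by 0.76 and 0.73, and in co-exposure against KBrO3 alone at 24 hr, by 0.88 and 0.82, where the probe used gave 0.50.

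Of the 13 apoptosis members, 11 were higher after co-exposure than after KBrO3 alone at 24 hr and 0 lower by limma, against 6.33% and 7.89% of all genes, with 0 lower at an unadjusted p below 0.05. Against control at 24 hr, 11 were higher and 1 lower after co-exposure (15.3% and 24.1% of all genes), and 3 were higher and 2 lower after KBrO3 alone (12.5% and 20.9%). At 4 hr the counts were 4 higher and 3 lower after KBrO3 alone (20.8% and 23.2% of all genes), and 5 and 5 after co-exposure (28.2% and 26.5%).

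The BH3-only genes, whose products set off the mitochondrial death pathway, differed from each other at 4 hr. Pmaip1 (Noxa) signals were -0.10, 0.10 and 0.17 in controls, 2.42, 2.45 and 2.48 at 4 hr after KBrO3 alone, 2.27, 2.40 and 2.41 after co-exposure, 0.58, 0.61 and 0.63 at 24 hr after KBrO3 alone and 2.19, 2.23 and 2.35 after co-exposure. Bbc3 (Puma) signals were 1.59, 1.62 and 1.65 in controls, 0.50, 0.51 and 0.56 and 0.30, 0.39 and 0.39 at 4 hr, 1.39, 1.42 and 1.53 at 24 hr after KBrO3 alone and 2.26, 2.50 and 2.61 after co-exposure. At 4 hr all treated arrays of Pmaip1 were above the controls and all those of Bbc3 below them, while at 24 hr the co-exposed arrays of both genes were above control and above KBrO3 alone. Pmaip1 rose by 2.40 ± 0.07 and 2.31 ± 0.07 at 4 hr and Bbc3 fell by 1.10 ± 0.07 and by 1.26 ± 0.07. At 24 hr co-exposure exceeded KBrO3 alone by 1.65 ± 0.07 for Pmaip1 (3.14-fold, adjusted p = 4.48e-09) and 1.01 ± 0.07 for Bbc3 (2.01-fold, adjusted p = 4.97e-07). Bax, the pore-forming partner, was not called at 4 hr (0.07 and 0.09), nor at 24 hr after KBrO3 alone (0.42), and rose by 1.09 ± 0.06 after co-exposure at 24 hr, 1.59-fold over KBrO3 alone.

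Perp, Apaf1, Phlda3 and Zmat3 were lower after co-exposure than after KBrO3 alone at 4 hr and higher at 24 hr. Perp encodes a membrane protein of p53-dependent death, Apaf1 the core of the apoptosome, Phlda3 an inhibitor of Akt signaling and Zmat3 an RNA-binding zinc finger protein. Perp signals were -0.80, -0.48 and -0.48 in controls, -1.09, -1.00 and -0.93 at 4 hr after KBrO3 alone, -1.70, -1.67 and -1.64 after co-exposure, 0.82, 0.85 and 1.04 at 24 hr after KBrO3 alone and 1.80, 1.90 and 1.95 after co-exposure. The 5 groups of Perp did not overlap. Phlda3 signals were 4.44, 4.45 and 4.48 in controls, 4.40, 4.43 and 4.44 at 4 hr after KBrO3 alone, 3.66, 3.71 and 3.73 after co-exposure, 4.28, 4.31 and 4.44 at 24 hr after KBrO3 alone and 5.34, 5.59 and 5.65 after co-exposure. KBrO3 alone thus left Phlda3 within 0.12 of control at either time, not called, although each of its arrays lay just below every control, and the co-exposed arrays lay farther below at 4 hr and above at 24 hr. Between the treatments the differences at 4 and 24 hr were -0.66 ± 0.09 and 0.98 ± 0.09 for Perp, -0.72 ± 0.07 and 1.19 ± 0.07 for Phlda3, -0.65 ± 0.06 and 0.90 ± 0.06 for Zmat3, and -1.03 ± 0.10 and 0.62 ± 0.10 for Apaf1. Apaf1 was called lower than control at 24 hr after KBrO3 alone (log2 -0.89) and was not called after co-exposure (-0.26). Other Apaf1 probes, in 1 order, gave -0.20 and 0.20 at 24 hr of KBrO3 alone against control and, between the treatments, -0.0049 and -0.54 at 4 hr and 0.43 and 0.21 at 24 hr, none called, so these Apaf1 calls rest on 1 probe. The 24 hr call between the treatments was also lost without KBrO3 24 hr replicate 1 (0.55) or co-exposure 24 hr replicate 2 (0.56).

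Trp53inp1, which promotes p53-dependent death and autophagy, was called higher after co-exposure than after KBrO3 alone at both times, at 4 hr by 1 probe only. Trp53inp1 signals were 0.79, 0.80 and 0.80 in controls, 0.95, 0.97 and 0.98 at 4 hr after KBrO3 alone, 1.54, 1.54 and 1.58 after co-exposure, 0.96, 1.11 and 1.20 at 24 hr after KBrO3 alone and 2.57, 2.58 and 2.83 after co-exposure. The co-exposed arrays were above those of KBrO3 alone at either time without overlap. The difference was 0.59 ± 0.07 at 4 hr, which lies at the fold limit and was called in 12 of 19 settings and was 0.47, not called, by another probe, and 1.57 ± 0.07 at 24 hr (2.98-fold, adjusted p = 8.70e-09). Aen, an exonuclease that takes part in apoptosis, was higher than control in all 4 treatments, by 2.34 ± 0.03 and 2.51 ± 0.03 at 4 hr and by 1.22 ± 0.03 and 2.00 ± 0.03 at 24 hr. Ei24, an endoplasmic reticulum protein, was called against control only after co-exposure at 24 hr (0.79 ± 0.07).

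The death receptors went different ways. Eda2r, the receptor of ectodysplasin A2, had signals of -4.47, -4.46 and -4.40 in controls, -3.05, -3.03 and -3.01 at 4 hr after KBrO3 alone, -3.01, -2.92 and -2.88 after co-exposure, -3.23, -3.13 and -3.05 at 24 hr after KBrO3 alone and -1.40, -1.29 and -1.27 after co-exposure. All treated arrays were above the controls, and the co-exposed arrays at 24 hr stood above every other group. Its difference of 1.82 ± 0.05 between the treatments at 24 hr (3.53-fold, adjusted p = 4.65e-10) was the largest of the members and rank 21 of the 15380 genes. Another Eda2r probe gave 1.56 at 4 hr, called, where the probe used gave 0.09, and 1.54 at 24 hr, so the difference between the times rests on 1 probe. Eda2r was dim, and with the normexp background correction its values against control turned to -0.39, -0.32 and -0.70 for KBrO3 alone at 4 hr, co-exposure at 4 hr and KBrO3 alone at 24 hr, while co-exposure at 24 hr gave 0.77 and the difference between the treatments 1.46, neither passing the test.

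Fas was lower and Tnfrsf10b, a receptor of the ligand TRAIL, was higher. Fas signals were 2.52, 2.54 and 2.60 in controls, 0.67 to 0.71 and 0.66 to 0.80 at 4 hr after KBrO3 alone and co-exposure, and 0.88 to 1.02 and 0.80 to 1.03 at 24 hr. All treated arrays lay below the controls, and the treatments overlapped each other at either time. Fas fell by 1.86, by 1.82, by 1.62 and by 1.65 (SE 0.06 each), and the treatments differed by 0.04 and -0.03. Another Fas probe gave -0.09 and 0.47 at 4 hr, not called, so the 4 hr fall rests on 1 probe. Tnfrsf10b rose by 1.02 ± 0.04 and 1.14 ± 0.04 at 4 hr, was not called at 24 hr after KBrO3 alone (0.37) and rose by 1.00 ± 0.04 after co-exposure.

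**Figure D3:**
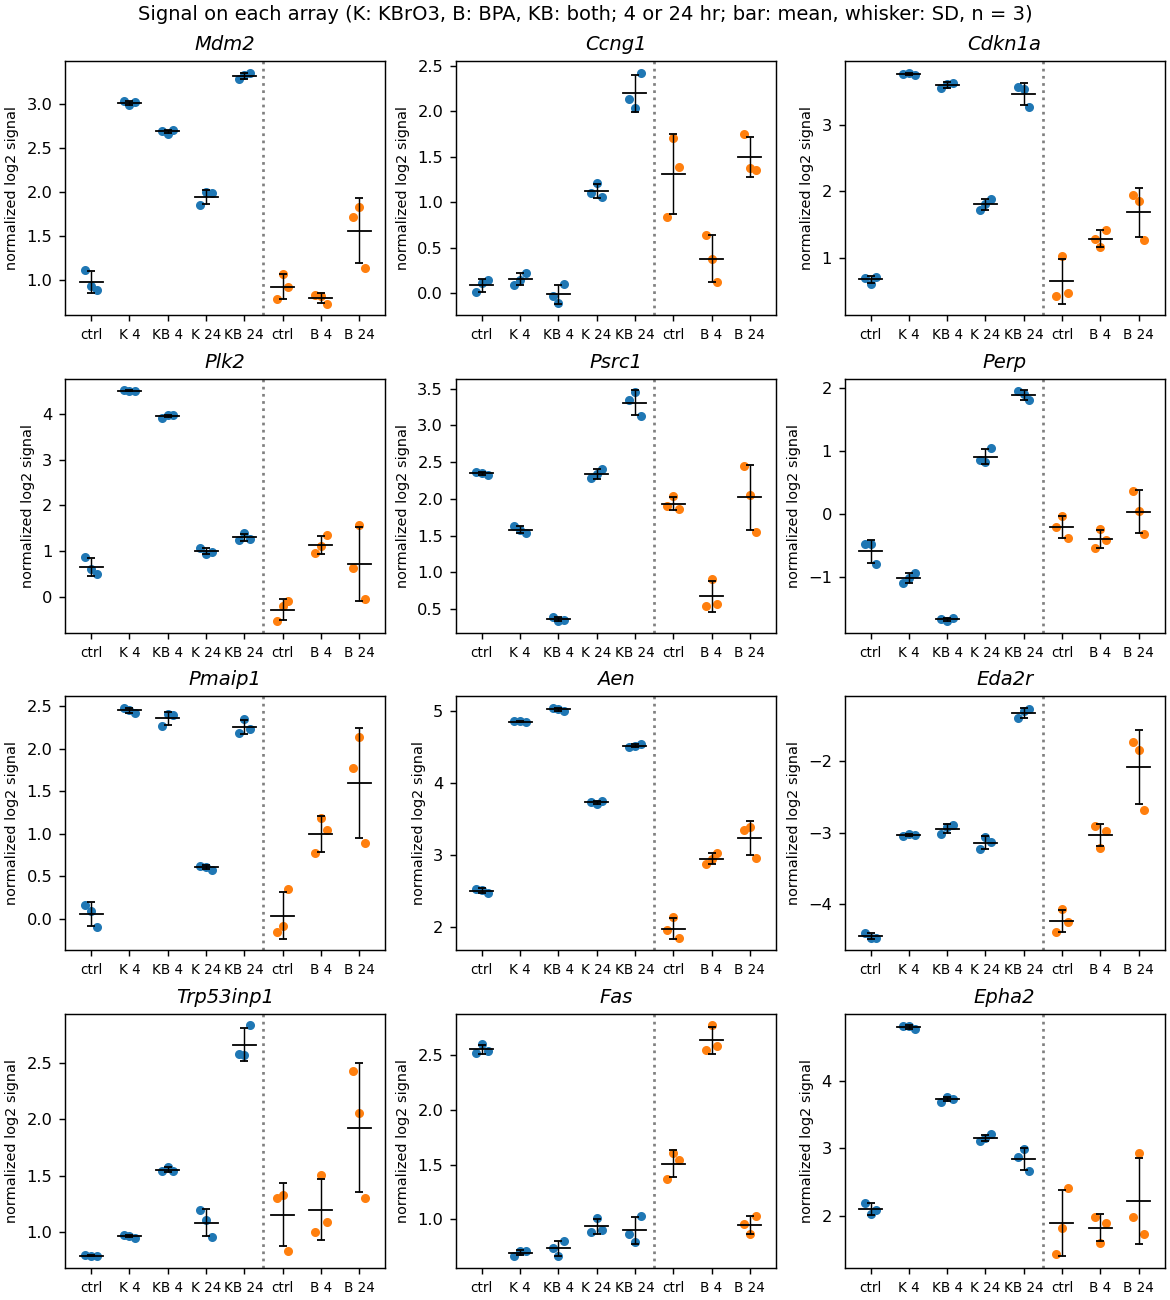
Normalized log2 signal of 12 members on each of the 24 arrays, with the first set in blue and the second set in orange on either side of the dotted line, the bar at the mean and the whisker at the SD (n = 3). The 24 hr co-exposed arrays (KB 24) of Eda2r lie between -1.40 and -1.27, above all other first-set arrays, and those of Fas between 0.80 and 1.03, below the controls.

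In the repair, nucleotide and signaling group, Ddb2 and Sesn1 were lower at 4 hr. Ddb2, a sensor of damaged DNA in nucleotide excision repair, had signals of 0.15, 0.19 and 0.20 in controls, -1.38, -1.35 and -1.33 at 4 hr after KBrO3 alone, -1.29, -1.22 and -1.15 after co-exposure, and -0.22 to -0.15 and -0.24 to -0.13 at 24 hr. The treated arrays stayed below the controls at both times and the treatments overlapped at 24 hr. Ddb2 fell by 1.53 ± 0.04 and by 1.40 ± 0.04 at 4 hr, and its 24 hr values of -0.36 and -0.37 were within the fold limit. Sesn1, a stress-responsive inhibitor of mTORC1 signaling, fell by 1.19 ± 0.05 and by 1.02 ± 0.05 at 4 hr and by 0.81 ± 0.05 at 24 hr after co-exposure, whereas KBrO3 alone gave -0.26 at 24 hr, not called. Between the treatments at 24 hr Sesn1 gave -0.54, within the fold limit, and its other probes were called lower (-0.65 and -0.80).

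Epha2, an ephrin receptor kinase, was called higher than control in all 4 treatments and was called lower after co-exposure than after KBrO3 alone at 4 hr. Its signals were 2.02, 2.09 and 2.19 in controls, 4.77, 4.81 and 4.82 at 4 hr after KBrO3 alone, 3.69, 3.73 and 3.77 after co-exposure, 3.11, 3.15 and 3.21 at 24 hr after KBrO3 alone and 2.66, 2.87 and 2.99 after co-exposure. The 5 groups did not overlap, and KBrO3 alone was above co-exposure at both times. Co-exposed cells differed by -1.07 ± 0.07 at 4 hr (adjusted p = 3.48e-07), whereas the 24 hr value of -0.31 ± 0.07 was within the fold limit. Ak1, an adenylate kinase, was 0.67 ± 0.05 higher than control only after co-exposure at 24 hr, 0.84 ± 0.05 above KBrO3 alone. Rrm2b, the ribonucleotide reductase subunit that p53 induces, was called only in that same comparison (0.62 ± 0.22, adjusted p = 0.0371), with arrays at -3.91, -3.76 and -3.30 after KBrO3 alone and -3.50, -3.02 and -2.57 after co-exposure. The groups overlapped, and the Rrm2b call was lost in 10 of 20 settings, among them without KBrO3 24 hr replicate 2 or 3 and without co-exposure 24 hr replicate 2 or 3.

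The effect of BPA added to KBrO3 differed between the times for most members. The 24 hr effect minus the 4 hr effect, tested in 1 model over the 15 arrays, was higher for 20 members and lower for 1 (62.5% and 3.12%), against 12.9% and 14.4% of all genes. The difference was 2.19 ± 0.10 for Psrc1, 1.91 ± 0.10 for Phlda3, 1.82 ± 0.10 for Cdkn1a, 1.74 ± 0.10 for Pmaip1, 1.73 ± 0.08 for Eda2r (by the probe used) and 1.70 ± 0.08 for Mdm2. The lower member was Sesn1 at -0.71 ± 0.07. The 4 hr and 24 hr comparisons of co-exposure with KBrO3 alone share no arrays. At 4 hr the treatments lay on separate slides, so slide cannot be told apart from the 4 hr part of the difference. The correlation between first-set arrays of 1 slide was estimated at 0.63, and the SE do not include it. Of the 7 members lower at 4 hr, 5 were higher at 24 hr (71.4% of the 7 and 29.4% of the 17), namely Psrc1, Apaf1 (by the 1 probe used), Phlda3, Perp and Zmat3. Over all genes tested, 65 were lower at 4 hr and higher at 24 hr (4.68% of 1389 and 6.67% of 974).

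**Figure D4:**
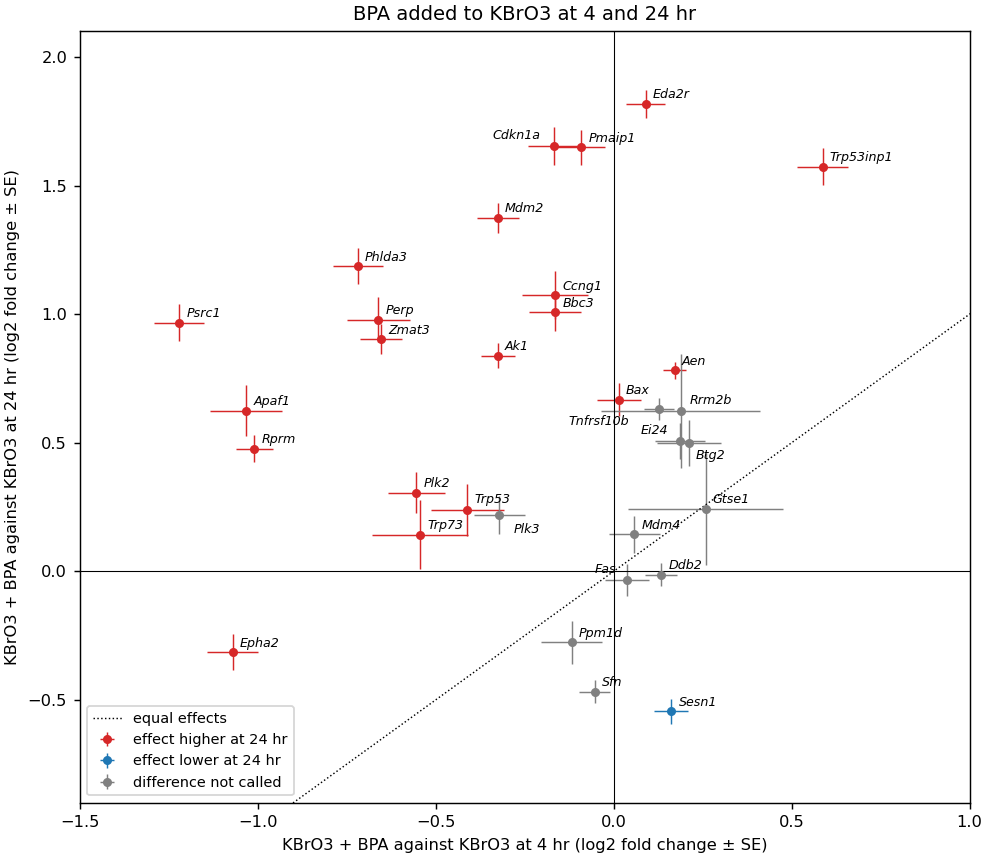
Log2 fold change of co-exposure against KBrO3 alone at 4 hr (horizontal) and 24 hr (vertical) for the 32 members, with SE bars, red where the 24 hr effect was called higher than the 4 hr effect, blue where it was called lower and gray where the difference was not called. Psrc1, at -1.22 and 0.97, lies farthest to the left and Eda2r, at 0.09 and 1.82, highest.

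Between the harvests, KBrO3 alone gave 9 members higher at 24 hr than at 4 hr and 10 lower (28.1% and 31.2%), against 19.7% and 28.3% of all genes. Co-exposure gave 17 higher and 5 lower (53.1% and 15.6%), against 23% and 34.4%, and 20 higher and 2 lower with median scaling. The lower count was 3 without co-exposure 4 hr replicate 2, with quantile normalization or with normexp. Cdkn1a fell by 1.96 ± 0.07, Pmaip1 by 1.85 ± 0.07 and Mdm2 by 1.07 ± 0.06 from 4 to 24 hr after KBrO3 alone (adjusted p = 2.04e-10, 1.82e-10 and 6.02e-09), whereas co-exposure gave -0.14 for Cdkn1a and -0.11 for Pmaip1, not called, and a rise of 0.63 ± 0.06 for Mdm2. Plk2 and Plk3 fell in both, by 3.52 ± 0.08 and by 2.90 ± 0.07 after KBrO3 alone and by 2.66 ± 0.08 and by 2.36 ± 0.07 after co-exposure. Perp rose in both, by 1.91 ± 0.09 and 3.55 ± 0.09. Time in culture and time after KBrO3 cannot be told apart here. In neither treatment did a 4 hr array share a slide with a 24 hr array of that treatment. For KBrO3 alone slide and time therefore cannot be told apart.

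BPA alone was measured in the second set, whose spread was larger. At 4 hr 4 were higher and 1 lower than control (12.5% and 3.12%), against 2.96% and 1.59% of the 17407 genes tested, and at 24 hr 3 were higher and 0 lower by limma (9.38% and 0%), against 1.73% and 2.42%, with 12 members higher and 3 lower at an unadjusted p below 0.05, against 10% and 10.5% of all genes. At both times 0 members were called with slide as a fixed block, with normexp or by the Bonferroni rule, while all 24 arrays in 1 fit gave 11 and 12. Eda2r signals were -4.38, -4.24 and -4.07 in these controls, -3.21, -2.97 and -2.91 at 4 hr and -2.67, -1.84 and -1.73 at 24 hr after BPA. The 3 groups did not overlap, and Eda2r rose by 1.20 ± 0.26 at 4 hr and 2.15 ± 0.26 at 24 hr (adjusted p = 0.0380 and 0.00519). Its other probes gave 0.72 and 0.78 at 4 hr, not called, and 1.64, called, and 1.36, not called, at 24 hr. With normexp the probe used gave 0.52 and 0.65, not called, and its 4 hr call was kept in 6 of 20 settings. Aen signals were 1.85, 1.96 and 2.14 in controls, 2.88, 2.95 and 3.03 at 4 hr and 2.97, 3.35 and 3.39 at 24 hr, above control on all 6 treated arrays. Aen rose by 0.97 ± 0.19 and 1.25 ± 0.19 (adjusted p = 0.0250 and 0.0112), while its other probes gave 0.58 and 0.79 at 4 hr, not called, and 0.92, not called, and 1.12, called, at 24 hr. Pmaip1 rose by 1.56 ± 0.32 at 24 hr, with arrays at 0.89, 1.78 and 2.14 against -0.15, -0.08 and 0.35 in controls, a call kept in 9 of 20 settings.

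Fas and Btg2 rose at 4 hr of BPA alone and Psrc1 fell. Fas signals were 1.37, 1.54 and 1.61 in controls, 2.54, 2.59 and 2.77 at 4 hr and 0.87, 0.96 and 1.03 at 24 hr. The 4 hr arrays were above and the 24 hr arrays below the controls, without overlap. Fas was 1.13 ± 0.17 higher at 4 hr (adjusted p = 0.00868), and its 24 hr value of -0.56 was not called. Another Fas probe was also called higher at 4 hr, by 2.45. Btg2 rose by 1.08 ± 0.24 and Psrc1 fell by 1.26 ± 0.25 at 4 hr. Of the 2 other Btg2 probes, 1 was called higher (1.78) and 1 was above control without passing (limma adjusted p = 0.0715), and both other Psrc1 probes were called lower (-1.47 and -1.44). Cdkn1a gave 0.64 and 1.04 and Mdm2 -0.13 and 0.64 at 4 and 24 hr, none called, which does not show that they did not differ. With any 1 of the 6 arrays left out the 4 hr count was 0 to 2 in place of 5, and the 24 hr count was 2 to 4 in place of 3. The slides shared by treatment and control gave the same sign for all 5 and all 3 called members, although none of them passed the test with slide as a fixed block.

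From 4 to 24 hr of BPA alone, 3 members rose and 1 fell (9.38% and 3.12%), against 1.18% and 3.13% of all genes. Psrc1 rose by 1.35 ± 0.25, Zmat3 by 1.04 ± 0.22 and Bbc3 by 1.00 ± 0.21, and Fas fell by 1.68 ± 0.17. Without BPA 4 hr replicate 1, 2 or 3 or BPA 24 hr replicate 2 the count of 4 became 1, without BPA 24 hr replicate 1 it became 2, and without BPA 24 hr replicate 3 it became 7.

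The effect of BPA added to KBrO3 was set against the effect of BPA alone as a difference of differences over all 24 arrays, since the sets shared no array or slide. At 4 hr 1 member was higher and 9 lower (3.12% and 28.1%), against 8.74% and 8.32% of the 15305 genes tested. Plk2 gave -1.97 ± 0.35, Eda2r -1.11 ± 0.24 by the probe used, Fas -1.09 ± 0.13, Pmaip1 -1.05 ± 0.30 and Cdkn1a -0.81 ± 0.23, and Ccng1 gave 0.77 ± 0.25. Another Eda2r probe went the other way, with 1.56 for BPA added to KBrO3 and 0.78 for BPA alone, so the Eda2r call rests on 1 probe. The Ccng1 call was kept in 7 of 25 alternative settings and that of Epha2 (-1.00) in 10 of 25, and without 1 array the 4 hr counts ran from 0 to 4 higher, with the 4 found without second-set control replicate 1, and from 7 to 10 lower. At 24 hr 4 members were higher and 0 lower by limma (12.5% and 0%), against 2.76% and 2.8%, with 2 lower at an unadjusted p below 0.05, against 10.5% of all genes. The members called higher were Ccng1 (0.89 ± 0.25), Psrc1 (0.88 ± 0.22), Mdm2 (0.74 ± 0.18) and Perp (0.74 ± 0.20), with limma adjusted p from 0.0240 to 0.0455. The SE and p at both times rest on 1 spread per probe over both sets. The sets differed in spread, with a median residual SD of 0.106 and 0.318, which this fit takes as equal. The 24 hr count was 0 without KBrO3 24 hr replicate 1 or co-exposure 24 hr replicate 2, 1 without KBrO3 24 hr replicate 2 or co-exposure 24 hr replicate 1, and 2 without second-set control replicate 2. It was also 0 with median scaling, and with slide as a fixed block members were called in both directions. For Eda2r, Cdkn1a and Pmaip1, which were among the highest in co-exposure against KBrO3 alone at 24 hr, the difference was -0.33, 0.61 and 0.08, not called.

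Of the 32 members, 29 were called at least once in the 8 comparisons with control or between treatments, 17 only higher, 2 only lower (Ddb2 and Sesn1) and 10 in both directions, beside 79.6% of the 15305 genes tested in both sets, with 31.1%, 33.6% and 14.9% in that order. Fas and Apaf1 were called lower in 4 of them, Psrc1 in 4 and Rprm in 3. Other tested probes, 27 in all, were present for 16 members, and of 210 pairs of such a probe with a comparison 167 gave the same call as the probe used and 0 the opposite call.

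Other genes of the pathway were taken from lists by name. Of 20 further regulators of p53, 19 were tested, and co-exposure against KBrO3 alone at 24 hr gave 0 higher and 1 lower by limma, against 6.33% and 7.89% of all genes. At an unadjusted p below 0.05, 7 were higher and 7 lower, against 30.3% and 25.5% of all genes. The gene called lower was Trp63, a p53 relative, at -1.18 ± 0.14. Of 28 tested among 30 further targets, 6 were higher and 3 lower, against the same 6.33% and 7.89%. Gdf15, a stress cytokine, was 1.95 ± 0.06 higher, Dcxr 1.75 ± 0.06 and Sesn2 1.44 ± 0.10, while the matrix protein gene Thbs1 was 2.12 ± 0.09 lower on the log2 scale (-2.12) and Igfbp3 gave -1.01 ± 0.12. The median was 0.21, beside -0.01 over all genes.

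The list of cell cycle genes that are repressed through p53, p21 and the DREAM complex held 15, all tested. At 4 hr 8 were lower than control after KBrO3 alone and 13 after co-exposure, against 23.2% and 26.5% of all genes, and 0 were higher, with 0 higher at an unadjusted p below 0.05 in either. At 24 hr 11 were higher and 0 lower after KBrO3 alone, against 12.5% and 20.9% of all genes, while co-exposure gave 1 higher and 1 lower, against 15.3% and 24.1%. Between the treatments at 4 hr 6 of 15 were lower after co-exposure and 0 higher, against 9.03% and 11.3% of all genes, with a median of -0.45. At 24 hr 13 of 15 were lower and 0 higher, against 7.89% and 6.33%, with a median of -0.75, among them Kif23 (-1.01 ± 0.07), Cdc20 (-0.96 ± 0.05) and Mki67 (-0.91 ± 0.05).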

How the data were processed

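RNA of 1 Ku70-deficient mouse fibroblast line was measured on 24 Agilent Whole Mouse Genome arrays. The deposited files hold spot intensity as the authors' scanner software wrote it (per the file headers, Agilent Feature Extraction 9.5.3.1 for the first set and 12.0.0.7 for the second), not normalized between arrays. The processed intensity was taken to log2, the 75th percentile of each array's non-control spots was subtracted, outlier spots were left out and repeated spots were averaged per probe. The test took 27310 probes for the first set and 31810 for the second, those above background (the software's flag) throughout 1 or more groups. limma 3.58.1 (R 4.3.3) was fitted to all arrays of a set, two-sided, with Benjamini-Hochberg adjustment over all probes. The fit was run on simulated data with independent noise and no slide effect, so that run does not show how it handles slides that differ. For each gene the brightest probe, by mean over the 24 arrays, was used. The study's rule was an adjusted p below 0.01 by Bonferroni with a fold limit of 1.5, which was run as an alternative.

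The genes named are all 32 members, with the signal on every array given for those called most often or changed most. The members and the lists of other genes were chosen with earlier results of these data known. The series' design text gives separate experiments at each time, and the labels give a replicate number only. Samples of the same replicate number did not deviate together throughout (mean correlation of deviations from the group means -0.029 for the first set, with pairs from -0.21 to 0.11, and 0.0020 for the second, with pairs from -0.38 to 0.65), so numbers were not used as a block. The number of arrays limits the precision. Alternatives were other scalings, the normexp background correction with an offset of 50 (on the median spot signal in the second set), filters on dim probes, other samples in the fit, slide and replicate blocks, weights, the mean over probes, the values of the series table (equal to the processed intensities) and leaving out each array. For time changes and differences of differences they were added after seeing the data. The values of 1 gene of the further lists are not reported here.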

Additional observations from a re-analysis of the deposited data

Results flagged for a closer look

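The effect of BPA added to KBrO3 differed between 4 and 24 hr for 21 members, by limma's test of that difference over the first set (24 hr effect minus 4 hr effect, log2, n = 3 arrays per group). Among p53 and its regulators the difference was 1.70 for Mdm2, 1.24 for Ccng1, 0.69 for Trp73 and 0.65 for Trp53. Among the arrest genes it was 2.19 for Psrc1, 1.82 for Cdkn1a, 1.49 for Rprm and 0.86 for Plk2. For the apoptosis genes it was 1.91 for Phlda3, 1.74 for Pmaip1, 1.73 for Eda2r, 1.66 for Apaf1, 1.64 for Perp, 1.56 for Zmat3, 1.17 for Bbc3, 0.99 for Trp53inp1, 0.65 for Bax and 0.61 for Aen. In the last group it was 1.17 for Ak1, 0.76 for Epha2 and -0.71 for Sesn1. Their adjusted p ran from 3.94e-08 for Eda2r to 0.00956 for Trp73. The Eda2r, Apaf1 and Trp53 values are by the probe used. Another Eda2r probe was called higher after co-exposure than after KBrO3 alone at 4 hr (1.56). Other Apaf1 probes gave -0.0049 and -0.54 at 4 hr and 0.43 and 0.21 at 24 hr between the treatments, none called. Another Trp53 probe was not called against control where the probe used was. At 4 hr slide and treatment cannot be told apart.

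BPA added to KBrO3 and BPA alone differed in effect at 4 hr for 10 members, lower when added for Plk2 (-1.97), Eda2r (-1.11), Fas (-1.09), Pmaip1 (-1.05), Epha2 (-1.00), Rprm (-1.00), Btg2 (-0.87), Cdkn1a (-0.81) and Aen (-0.80) and higher for Ccng1 (0.77). At 24 hr they differed for Ccng1 (0.89), Psrc1 (0.88), Mdm2 (0.74) and Perp (0.74). The 4 hr value of Eda2r is by the probe used, while another probe went the other way, with 1.56 for added BPA and 0.78 for BPA alone. The 2 sets lay on separate slides and their files name different software versions. The part of slides and versions in these differences was not tested.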

How the results depend on the processing

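In the first set, counts of members called stayed within 1.5 times the values reported in every alternative run, except that the Bonferroni rule gave 5 for co-exposure against KBrO3 alone at 4 hr. Leaving out 1 array gave 15 to 17 for that comparison at 24 hr, and the replicate block gave 16. The second set was less steady. For BPA alone at 4 hr the count of 5 became 2 with median scaling, 3 with no filter on dim probes, 11 with all 24 arrays in 1 fit, 1 with the replicate block and 0 with normexp, slide as a fixed block or Bonferroni, and 0 to 2 without 1 array. At 24 hr the count of 3 became 1 with only the arrays compared, 12 with all 24 arrays and 0 with normexp, slide as a fixed block or Bonferroni. Between the times of BPA alone, 4 became 2 with no filter on dim probes or the replicate block, 13 with all 24 arrays, 0 with normexp, slide as a fixed block or Bonferroni, and 1 to 7 without 1 array. For BPA added to KBrO3 minus BPA alone, normexp and Bonferroni gave 1 at 4 hr. At 24 hr 4 became 0 with median scaling, normexp, only the arrays compared or Bonferroni, 2 with no filter on dim probes, 9 (4 higher and 5 lower) with slide as a fixed block, and 0 to 6 without 1 array.

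Signs turned with normexp against control for Trp73 (-0.19) and Eda2r (-0.39) after KBrO3 alone at 4 hr, Eda2r after co-exposure at 4 hr (-0.32) and KBrO3 alone at 24 hr (-0.70), and Rrm2b after co-exposure at 24 hr (-0.82), and with the mean over probes for Fas between the times of co-exposure (-0.78). The cause was not tested. The fixed slide block could not be fitted for co-exposure at 4 hr, either treatment at 24 hr against control, co-exposure against KBrO3 alone at 4 hr, KBrO3 alone between the times, the difference between the times in the effect of added BPA, or added BPA minus BPA alone at 4 hr. The replicate numbers are shared by name only, and the block changed no count in the first set other than the one given. Dim probes, such as those of Eda2r, Trp73 and Rrm2b, limit what their folds can show.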
